A study of Mus musculus with 13 samples.

Results

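The genes described here are the 63 genes, of 32285 in the count tables, whose symbols begin with Clec, Tlr, Nlrp or Nlrc followed by a digit, the innate pattern-recognition receptor families of the mouse. The rule used their names and no measured value, and they comprise 31 Clec, 12 Tlr, 17 Nlrp and 3 Nlrc genes. All 13 single-cell libraries came from the colon of C57BL/6J mice of genotype ApcMin/+; p16cis/cis on the supplemented diet (extra folic acid, choline, betaine and vitamin B12). ApcMin/+ carries a truncating allele of the intestinal tumor suppressor Apc, and p16cis/cis is an epimutation of p16, in which promoter methylation of that gene is altered, so tumors and controls share both alleles and the diet. The 10 colon tumors came from 3 animals, and each animal also gave 1 library of adjacent mucosa, the control tissue. Mucosa 1 and tumors 1 to 4 came from an animal of 20 weeks, mucosa 2 and tumors 5 to 8 from an animal of 24 weeks, and mucosa 3 and tumors 9 and 10 from an animal of 23 weeks. Mucosa was dissociated with EDTA and TrypLE and tumors with an enzymatic tumor kit, so tissue and dissociation cannot be told apart. Whether mice on another diet or genotype differ was not analysed here.

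Pattern-recognition receptors are the germline-encoded sensors of innate immunity. Many Clec genes encode C-type lectin-like receptors, some of which bind microbial sugars or glycolipids and signal in myeloid cells through adaptors with activation motifs. The Clec2 branch encodes surface ligands read by receptors of natural killer cells. Members were chosen by symbol alone, and not every Clec gene encodes a receptor. Toll-like receptors recognise lipoproteins, lipopolysaccharide, flagellin or nucleic acids at the surface or in endosomes, and the Nlrp and Nlrc genes encode cytosolic proteins, some of which assemble inflammasomes that activate caspase-1 and release IL1B. In the colon, these families serve both the leukocytes of the lamina propria and the epithelium that faces the microbiota.

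Most members were detected, and a few accounted for most of the signal. The retained cells held 879011 UMIs (unique molecular identifiers, each standing for 1 captured RNA molecule) of the 63 genes, of which 591300 were Clec, 142298 Nlrp, 118712 Tlr and 26701 Nlrc. There were 46 genes with at least 100 UMIs and 17 with fewer. No UMI was counted for 11 of these 17, namely Clec3a, Clec4f, Nlrp14, Nlrp2, Nlrp4a, Nlrp4b, Nlrp4c, Nlrp4e, Nlrp5, Nlrp9a and Nlrp9c. The other low ones were Clec18a, Nlrp4f, Clec12b, Clec4a4, Clec4b2 and Clec4g, with between 2 and 94 UMIs each. Levels are given as CPM, the UMIs of a gene scaled to a total of 1e6 UMIs in the same summed cells. A 3′ UMI is counted once per molecule whatever the gene's length, so levels need no length correction.

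The members lay in clusters in the genome. By GENCODE vM21 annotation (mm10), 23 were on chromosome 6 and 14 on chromosome 7. A block of 368.0 kb at chr6:122921848-123289870 held 9 genes, in order Clec4a1, Clec4a3, Clec4a4, Clec4b1, Clec4a2, Clec4b2, Clec4n, Clec4d and Clec4e. A second block of 789.6 kb at chr6:128662385-129452000 held 11, from Clec2h through Clec2i, Clec2f, Clec2d, Clec12a and Clec9a to Clec1a. Nlrp3 lay apart on chromosome 11, Nlrp6 and Nlrp12 on chromosome 7, Tlr2 on chromosome 3 and the neighbours Tlr1 and Tlr6 on chromosome 5. Near-identical neighbours such as the Clec4a and Clec2 genes can share reads, so their counts are less certain than those of isolated genes. Clec2f is annotated as a transcribed unprocessed pseudogene.

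The proximal promoters of 5 members are shown because the results turn on them. Clec4d, Clec4e and Nlrp3 were the members with the highest levels in tumor neutrophil-like cells, and Clec2h and Nlrp6 were, with Clec14a, the epithelial members that fell furthest. Each sequence is the RefSeq promoter of GRCm38.p6 from 250 bases before to 50 after the annotated start, written 5′ to 3′ on the gene's strand. The regions are chr6:123261857-123262156 (plus strand) for Clec4d, chr6:123289822-123290121 (minus) for Clec4e, chr11:59542436-59542735 (plus) for 1 of 2 Nlrp3 starts, chr6:128662135-128662434 (plus) for Clec2h and chr7:140920652-140920951 (plus) for Nlrp6. Capitals mark matches to any of 7 motifs, searched on both strands.
Clec4d promoter: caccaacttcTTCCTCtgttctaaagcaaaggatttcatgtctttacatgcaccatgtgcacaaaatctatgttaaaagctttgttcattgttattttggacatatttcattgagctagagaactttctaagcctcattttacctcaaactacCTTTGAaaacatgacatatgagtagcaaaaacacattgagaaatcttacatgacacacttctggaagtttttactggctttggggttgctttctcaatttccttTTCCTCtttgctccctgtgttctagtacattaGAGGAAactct
Clec4e promoter: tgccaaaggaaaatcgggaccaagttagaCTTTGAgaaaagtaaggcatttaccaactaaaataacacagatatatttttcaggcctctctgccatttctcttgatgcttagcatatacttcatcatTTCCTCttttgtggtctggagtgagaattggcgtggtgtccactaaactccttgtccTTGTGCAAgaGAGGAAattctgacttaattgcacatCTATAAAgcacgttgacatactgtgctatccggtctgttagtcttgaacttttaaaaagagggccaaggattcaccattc
Nlrp3 promoter: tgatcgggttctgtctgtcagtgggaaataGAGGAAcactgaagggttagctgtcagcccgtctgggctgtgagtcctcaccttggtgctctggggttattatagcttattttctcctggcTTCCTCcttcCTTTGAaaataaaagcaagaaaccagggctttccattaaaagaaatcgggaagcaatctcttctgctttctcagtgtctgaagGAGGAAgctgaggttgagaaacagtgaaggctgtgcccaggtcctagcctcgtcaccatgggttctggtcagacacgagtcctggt
Clec2h promoter: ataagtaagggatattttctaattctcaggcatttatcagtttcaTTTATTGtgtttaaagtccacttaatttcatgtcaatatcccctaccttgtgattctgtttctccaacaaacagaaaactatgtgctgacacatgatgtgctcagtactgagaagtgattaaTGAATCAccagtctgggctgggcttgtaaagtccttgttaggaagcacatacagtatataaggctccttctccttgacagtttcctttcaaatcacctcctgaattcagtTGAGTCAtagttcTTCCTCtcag
Nlrp6 promoter: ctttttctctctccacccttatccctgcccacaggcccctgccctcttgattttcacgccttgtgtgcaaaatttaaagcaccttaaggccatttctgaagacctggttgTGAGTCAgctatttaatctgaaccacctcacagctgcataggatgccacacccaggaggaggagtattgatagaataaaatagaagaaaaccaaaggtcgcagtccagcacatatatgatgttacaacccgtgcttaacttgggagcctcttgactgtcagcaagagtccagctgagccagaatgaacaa

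The PU.1 core GAGGAA (PU.1 is a myeloid transcription factor) occurred at 3 places in the Clec4d promoter, 2 in that of Clec4e and 3 in the printed window of Nlrp3. The window of the other Nlrp3 start (chr11:59541319-59541618), which holds the gene start of the GENCODE annotation, had no PU.1 match, 1 TCF/LEF match and 1 GATA match. The Clec2h promoter held 1 and the Nlrp6 promoter none. Of 32817 mouse promoters of this length, 28.3% held the same letters. The C/EBP letters TTGCNNAA, present in 10.8% of promoters, occurred once in Clec4e. The AP-1 letters TGANTCA, present in 7.8%, occurred at 2 places in Clec2h and once in Nlrp6, and the CDX2 letters TTTATNG, present in 10.9%, occurred once each in Clec2h and Clec4e. CTTTGA (TCF/LEF, 16.0% of promoters) occurred once each in Clec4d, Clec4e and this Nlrp3 promoter, while the GATA-factor letters AGATAA (11.2%) and the HNF4 letters CAAAGTCC (1.4%) were absent from these 5 windows. These matches describe letters only and were not linked to any measurement.

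In all, 108495 cells were analysed (85953 from tumors and 22542 from mucosa), 78.9% of the deposited barcodes. Tumor libraries held 6916 to 9791 cells and 50398580 to 77895189 UMIs, and mucosa libraries 4917 to 9398 cells and 69327246 to 86625728 UMIs. Pairs of libraries shared 14 to 61 cell barcodes. Cells were clustered with all 63 members held out and named from marker lists, so a name ending in "-like" rests on other genes. Neutrophil-like cells made up 31.1% of tumor cells and 0.213% of mucosa cells. Mucosa 1 stood apart from the other mucosa libraries: its epithelial cells held 877 CPM of the absorptive marker list, against 10661 and 11935 CPM, and values without it are given where they matter. Although 7 libraries were labelled female and 6 male, every library held 104 to 129 CPM of Y-linked genes and at most 0.126 CPM of Xist, and sex was not used.

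Within the tumors, more members reached their highest level in neutrophil-like cells than in any other class. Among 46 members ranked over the 11 classes with at least 20 cells in every tumor, 10 ranked first in neutrophil-like cells, 8 in C1q+ macrophage-like cells, 7 in other epithelial cells, 6 in dendritic cell-like cells and 4 in Ly6c+ monocyte-like cells. The remaining 11 ranked first in B cell-like (3), tumor epithelial-like (3), T cell-like (2), NK or innate lymphoid-like, Spp1+ macrophage-like or plasma cell-like cells (1 each). Classes outside the ranking held more of some members, such as Clec2h in goblet-like cells (318 CPM). The unnamed cluster led by Cox6a2, Siglech and Ccr9, described at the end, held more Clec10a, Clec12a, Clec2d, Clec2i and Tlr7 than any ranked class. Some ranks rest on few counts. Clec3b was first in NK or innate lymphoid-like cells on 2 of its 283 tumor UMIs, and Tlr9 in B cell-like cells on 22 of 224. These levels are a description without a test, since the classes come from the same cells. Means are over 3 animals, each the mean of its tumors, with SD between animals.

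**Figure D1:**
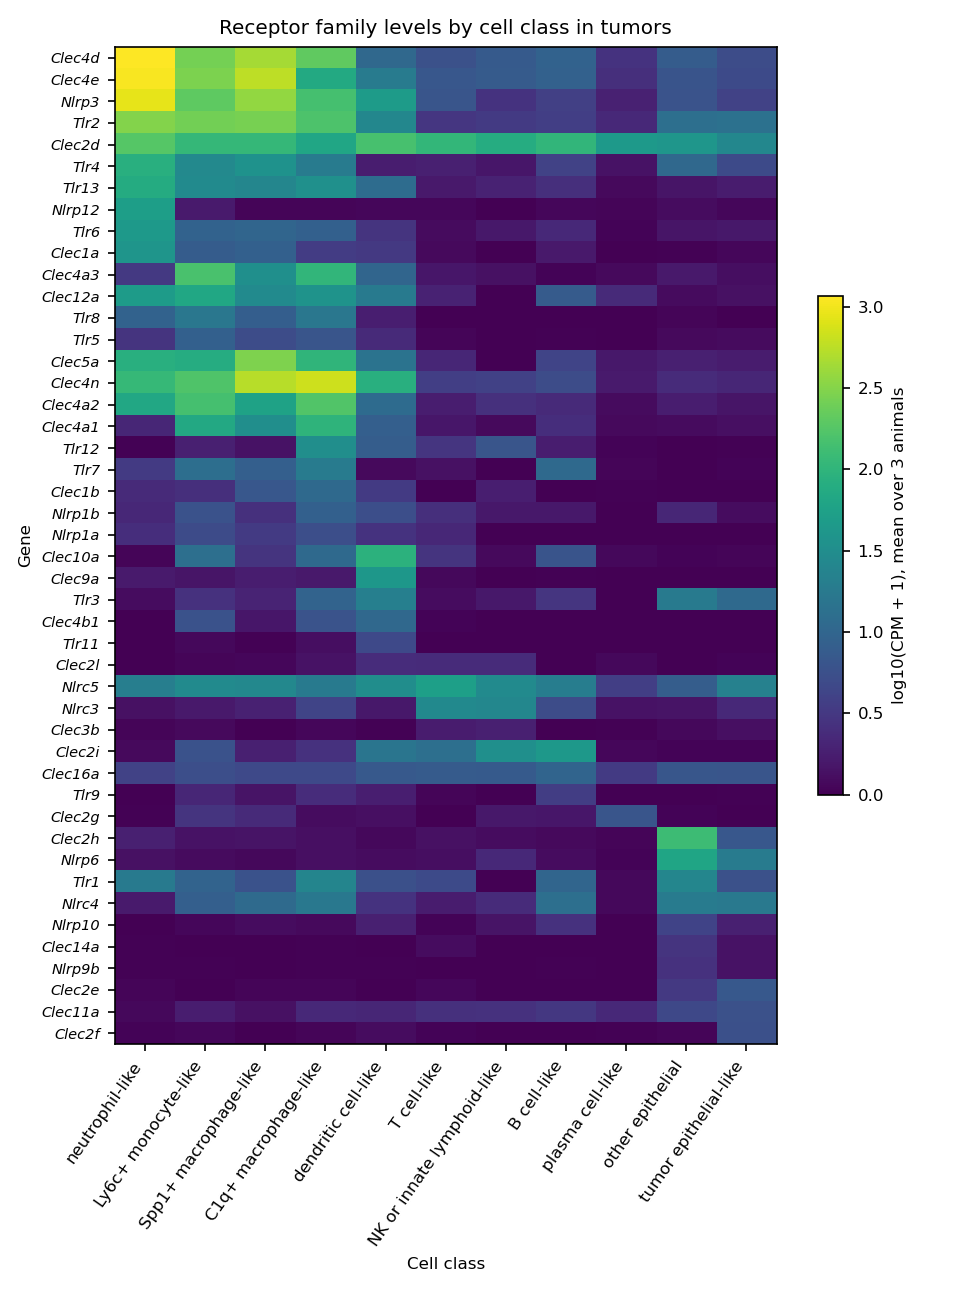
Level (log10 of CPM + 1) of 46 members in 11 cell classes of the tumors, as the mean over 3 animals. The neutrophil-like column is brightest for Clec4d, Clec4e and Nlrp3 (1158, 1080 and 896 CPM), while Clec2h and Nlrp6 are brightest in other epithelial cells (126 and 62.2 CPM). Goblet-like cells, not among the 11 classes, held 318 CPM of Clec2h.

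The glycolipid receptors Clec4d and Clec4e, which pair and signal through the Fc receptor gamma chain, led the neutrophil-like group. Clec4d stood at 913 CPM in the lowest tumor, 1106 in the median and 1639 in the highest, a mean of 1158 ± 168 CPM (SD, n = 3 animals). Clec4e ranged from 719 through a median of 1004 to 1322 CPM, a mean of 1080 ± 196. In all 10 tumors both were higher in neutrophil-like cells than in any other ranked class. The next class was Spp1+ macrophage-like for both, at 453 ± 79.2 CPM for Clec4d and 580 ± 192 for Clec4e. Neutrophil-like cells held 65.7% of all tumor UMIs of Clec4d and 63.6% of those of Clec4e.

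Nlrp3, the sensor of the best known inflammasome, followed the same order of classes. Its level in neutrophil-like cells was 672 CPM in the lowest tumor, 851 in the median and 1189 in the highest, with a mean of 896 ± 169 CPM. Spp1+ macrophage-like cells followed at 370 ± 104 CPM, and 64.4% of its tumor UMIs were in neutrophil-like cells. Nlrp12, an Nlrp protein described mainly as a brake on myeloid signaling, was narrower in distribution. It reached 38.8 to 67.2 CPM in neutrophil-like cells over the 10 tumors, with a mean of 51.1 ± 7.46. The second class, Ly6c+ monocyte-like cells, stood at 0.67 CPM, and 97.4% of tumor Nlrp12 UMIs were in neutrophil-like cells.

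Of the Toll-like receptors, 4 ranked first in neutrophil-like cells. Tlr2, the receptor for bacterial lipoproteins, stood at 231 to 346 CPM there, with a median of 323, and was first in 7 of 10 tumors. Spp1+ macrophage-like cells (270 ± 57.9 CPM) and Ly6c+ monocyte-like cells (255 CPM) were close, within the spread between animals. Tlr4, the lipopolysaccharide receptor, averaged 84.2 ± 19.7 CPM in neutrophil-like cells, Tlr13, which detects bacterial ribosomal RNA, 75.2 ± 8.50, and Tlr6, a partner of Tlr2, 42.7 ± 1.84. Each of these 3 ranked first in all 10 tumors. Tlr1, the other partner of Tlr2, had a different distribution, with 24.4 ± 2.40 CPM in other epithelial cells and 24.0 ± 1.04 in C1q+ macrophage-like cells, which do not differ beyond their spread. Clec1a averaged 38.9 ± 13.7 CPM in neutrophil-like cells and varied between tumors, from 11.7 to 55.9.

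The neutrophil-like cells fell into 3 clusters that differed in these genes. The largest (15296 tumor cells, leading genes G0s2, Acod1 and Mrgpra2b) held 1288 ± 229 CPM of Clec4e and 1134 ± 189 of Nlrp3. The second (9312 cells, leading genes Ngp, Retnlg and Mmp8, products of neutrophil granules) held 757 ± 117 CPM of Clec4e and 553 ± 73.4 of Nlrp3. The third (2125 cells, led by Ccrl2, Ccl3 and Csf1) held 1483 ± 78.1 CPM of Clec4d. The first held 1285 ± 256, which does not differ beyond its spread, and the second 915 ± 166. Nlrp12 stood at 47.6 ± 6.66 and 63.7 ± 4.49 CPM in the first and second clusters and at 7.71 ± 1.29 in the third, whose range over tumors (3.00 to 14.8) did not reach those of the other two. Clec2d went from 245 ± 43.3 CPM in the first to 81.7 ± 14.9 in the second and 126 ± 11.1 in the third. These contrasts between clusters are descriptions.

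Other genes of the first chromosome 6 block, Clec4n, Clec4a1, Clec4a2 and Clec4a3, were highest in macrophage-like or monocyte-like cells, while Clec4b1 ranked first in dendritic cell-like cells. Clec4n, a receptor for fungal mannans, was highest in C1q+ macrophage-like cells at 605 to 759 CPM over tumors (mean 668 ± 39.0), followed by Spp1+ macrophage-like cells at 541 ± 56.7. The C1q+ class led in 9 of 10 tumors. Clec4a1 (96.8 ± 25.5 CPM) and Clec4a2 (170 ± 17.1 CPM), of the Clec4a group that includes inhibitory receptors, were also highest there in all 10 tumors. Clec4a3, their neighbour, was highest in Ly6c+ monocyte-like cells, at 131 to 196 CPM, with C1q+ macrophage-like cells second at 102 ± 4.23. Clec5a, which signals through the adaptor encoded by Tyrobp, was the member that ranked first in Spp1+ macrophage-like cells. Its level there was 292 ± 31.1 CPM, against 101 ± 8.76 in C1q+ macrophage-like cells and 84.9 in the neutrophil-like class; the Spp1+ class was first in all 10 tumors. Clec12a, an inhibitory lectin, was spread over Ly6c+ monocyte-like (66.8 ± 11.4 CPM) and neutrophil-like cells (47.6 ± 5.00).

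The remaining Toll-like receptors did not share 1 leading class. Tlr12, which recognises profilin, averaged 31.5 ± 2.90 CPM in C1q+ macrophage-like cells, and 82.4% of its tumor UMIs were there. Tlr7, a receptor for single-stranded RNA, averaged 17.98 ± 3.198 CPM in the same class. Tlr8 stood at 15.3 CPM in both Ly6c+ monocyte-like and C1q+ macrophage-like cells and cannot be ordered between them. Tlr9, the receptor for CpG DNA, reached only 2.56 ± 1.19 CPM in B cell-like cells, and Tlr5, the flagellin receptor, 7.68 ± 1.05 CPM in Ly6c+ monocyte-like cells.

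Clec9a, Clec10a and Tlr3 were among the 6 members that ranked first in dendritic cell-like cells. Clec9a, which binds actin exposed on dead cells, averaged 40.9 ± 8.53 CPM, with 84.0% of tumor UMIs in this class and a mean of 0.765 CPM in the next ranked class. Clec10a, a galactose-binding lectin, averaged 91.8 ± 16.5 CPM, and Tlr3, the receptor for double-stranded RNA, 19.8 ± 7.55. Other epithelial cells held 17.5 ± 0.96 CPM of Tlr3, within that spread, and tumor epithelial-like cells held 46.4% of its tumor UMIs against 12.9% in dendritic cell-like cells. The dendritic cell-like cluster led by Ifi205, Naaa and Cst3 (2266 tumor cells) held 56.0 ± 12.7 CPM of Clec9a, 126 ± 11.2 of Clec10a and 28.0 ± 9.79 of Tlr3. The one led by Fscn1, Ccl22 and Ccr7 (994 cells), genes of mature migrating dendritic cells, held 6.82 ± 0.82 CPM of Clec9a and 8.37 ± 3.07 of Clec10a. No UMI of Tlr3 was counted in that second cluster. Nlrc5, the transactivator of MHC class I genes, was the reverse, at 20.9 ± 4.12 CPM in the first cluster and 54.5 ± 0.56 in the second.

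Summed over all cells of a library, most members were higher in tumors than in mucosa. By edgeR's quasi-likelihood test with Benjamini-Hochberg adjustment, 32 of the 48 members tested were higher, where 36.1% of all 17414 genes were called higher. There were 8 lower, where 33.8% of all genes were. In 29 of the higher and 6 of the lower, the 10 tumors did not overlap the 3 mucosa libraries, where 26.9% of all genes did not overlap as higher and 25.8% as lower. The median log2 fold change was 3.37 over the members and 0.03 over all genes. These sums follow the cell makeup, and in them fewer cells of a type and less RNA per cell cannot be told apart. The neutrophil marker list moved with them, from 19.1 to 229 CPM in mucosa to 17019 to 31970 CPM in tumors, and its part in each change was not tested.

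Clec5a, Clec4n, Clec4d, Clec4e and Nlrp3 were the highest risers among members seen in mucosa. Clec4d was at 0.03, 0.63 and 0.16 CPM in mucosa 1, 2 and 3 and at 118, 190 and 302 CPM in the lowest, median and highest tumor (log2 fold change 9.53 ± 0.73 SE, adjusted p = 1.29e-07). Nlrp3 was at 0.14, 0.27 and 0.29 CPM in mucosa and at 98.9, 151 and 221 CPM in tumors (9.34 ± 0.47, adjusted p = 4.37e-09). Every tumor was above every mucosa library for both. Clec4e rose by 8.58 ± 0.60, Clec4n by 8.52 ± 0.47 and Clec5a by 7.57 ± 0.36 on the same scale, with adjusted p between 3.12e-09 and 5.57e-08. Nlrp12 rose by 7.11 ± 0.59 and Clec1b, the podoplanin receptor, by 6.52 ± 0.67. Clec1a had no UMI in any mucosa library and 1.87 to 10.98 CPM in tumors, which with mucosa set at a floor of 3 UMIs for the whole group is a rise of at least 465.7-fold.

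Of the 12 Toll-like receptors, 10 were higher in these sums. Tlr8 (7.26 ± 0.42), Tlr13 (7.03 ± 0.31), Tlr6 (3.68 ± 0.26), Tlr7 (3.67 ± 0.44), Tlr11 (3.47 ± 0.64), Tlr9 (3.27 ± 0.54), Tlr2 (3.12 ± 0.38), Tlr12 (2.75 ± 0.29), Tlr4 (1.90 ± 0.23) and Tlr5 (1.04 ± 0.24) all passed the test on the log2 scale. Tlr3 was the exception that fell, from 14.9, 16.7 and 16.6 CPM in mucosa to 5.84 to 9.12 CPM in tumors (-1.17 ± 0.15, adjusted p = 8.64e-06), with no overlap. Tlr1 did not pass (-0.35 ± 0.16, adjusted p = 0.0694), but passed without mucosa 1 (adjusted p = 0.00484). The other lower members were Clec2h (-3.49 ± 0.49), Nlrp6 (-3.50 ± 0.30), Clec14a (-3.36 ± 0.38), Nlrp9b (-1.76 ± 0.47), Nlrp10 (-1.46 ± 0.38), Clec11a (-0.99 ± 0.21) and Nlrc4 (-0.31 ± 0.12). Nlrc4 did not pass in 9 of the alternatives, and Clec2d (-0.48, adjusted p = 0.0641) and Clec2i (-0.56, adjusted p = 0.0911) passed as lower without mucosa 2 (adjusted p 0.0103 and 0.0245).

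Epithelial cells alone gave a mixed picture. Their makeup differed between the tissues: the tumor epithelial-like class held 12691 tumor and 8 mucosa cells, and the other epithelial class 2118 and 9665, so values over all epithelial cells carry that difference. Of 31 members tested, 13 were higher in tumors, where 34% of 15504 genes were, and 8 were lower, where 30.4% were, so neither share departs far from the background. The median log2 fold change was 0.06 over the members and 0.04 over all genes. In 11 of the higher and 7 of the lower members, the tumors and the mucosa libraries did not overlap, where 33.6% of all genes lay apart as higher and 12.6% as lower. The 8 that fell were Clec14a, Clec2h, Nlrp6, Tlr5, Clec2d, Nlrp1b, Tlr1 and Tlr3, most of them genes with clear levels in mucosal epithelium.

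Clec2h, an epithelial ligand of the natural killer receptor family, fell furthest among the abundant members, though the change of Nlrp6 lay within its SE. It was at 125, 278 and 232 CPM in the epithelial cells of mucosa 1, 2 and 3, and at 9.06, 33.0 and 94.996 CPM in the lowest, median and highest tumor. All tumors lay below all mucosa libraries (log2 fold change -2.73 ± 0.47, adjusted p = 0.000198). The level depended strongly on the kind of epithelial cell. In mucosa, absorptive epithelial-like cells held 837 ± 34.5 CPM and goblet-like cells 469 ± 26.7 (SD, n = 3 animals), while in tumors these held 263 ± 86.5 and 318 ± 109 CPM. The absorptive class was made of different clusters in the 2 tissues: one led by Cyp2c55, Car1 and Slc51a held 2204 mucosa and 0 tumor cells, and one led by Ly6m, Clca4b and Saa1 held 894 mucosa and 630 tumor cells. In the second, Clec2h ranged from 577 to 903 CPM in mucosa and from 126 to 648 in tumors, and so overlapped. Tumor epithelial-like cells, which express Wnt target genes such as Axin2 and Notum and form the largest epithelial class of tumors, held 5.70 ± 5.18 CPM.

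Nlrp6, a cytosolic sensor known from the gut epithelium, fell with it. Its levels were 71.5, 160 and 153 CPM in mucosa and 13.8, 21.9 and 40.5 CPM in the lowest, median and highest tumor, without overlap (-2.72 ± 0.29, adjusted p = 4.67e-06). Absorptive epithelial-like cells held 184 ± 60.6 CPM in mucosa and 36.0 ± 17.95 in tumors, and in the cluster led by Ly6m, present in both tissues, Nlrp6 ranged from 121 to 151 CPM in mucosa and from 7.96 to 77.8 in tumors, without overlap. Other epithelial cells, those without a leading marker list, held 132 ± 47.7 CPM in mucosa and 62.2 ± 5.37 in tumors, and tumor epithelial-like cells 17.8 ± 6.32. Within the cluster of other epithelial cells that was large in both tissues, led by Defb45, Wfdc2 and Gsdmc4, Nlrp6 ranged from 75.2 to 141 CPM in mucosa and from 47.2 to 94.3 in tumors, and so overlapped. Clec2h in that cluster ranged from 24.6 to 172 CPM in mucosa and 85.9 to 165 in tumors, also overlapping.

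Clec2d, the ligand of an inhibitory natural killer receptor, fell from 108, 61.7 and 118 CPM to between 20.7 and 44.2 CPM in tumor epithelium (-1.96 ± 0.21, adjusted p = 5.30e-06). Again no tumor overlapped mucosa. Without mucosa 1, the log2 fold changes were -3.01 for Clec2h, -3.01 for Nlrp6 and -1.88 for Clec2d, and all 3 still passed. Clec14a, a gene best known from endothelium, fell from 2.44, 7.02 and 5.52 CPM to at most 1.01 CPM (-3.04 ± 0.29, adjusted p = 1.97e-06), and Nlrp1b, which senses anthrax lethal factor, from at least 1.08 CPM to at most 0.83 (-1.57 ± 0.39). In the cluster led by Defb45, Wfdc2 and Gsdmc4, present in both tissues, ranges in mucosa and tumors overlapped for Clec2d (45.3 to 98.2 CPM against 21.3 to 58.8), Clec14a (0 to 4.33 against 0.67 to 3.24), Tlr3 (14.5 to 19.9 against 12.99 to 21.7) and Tlr1 (7.67 to 28.8 against 17.6 to 30.2). Tlr5 had 1 UMI there in mucosa and 9 in tumors, too few to compare. Values of Nlrp1b in that cluster are not given here.

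**Figure D2:**
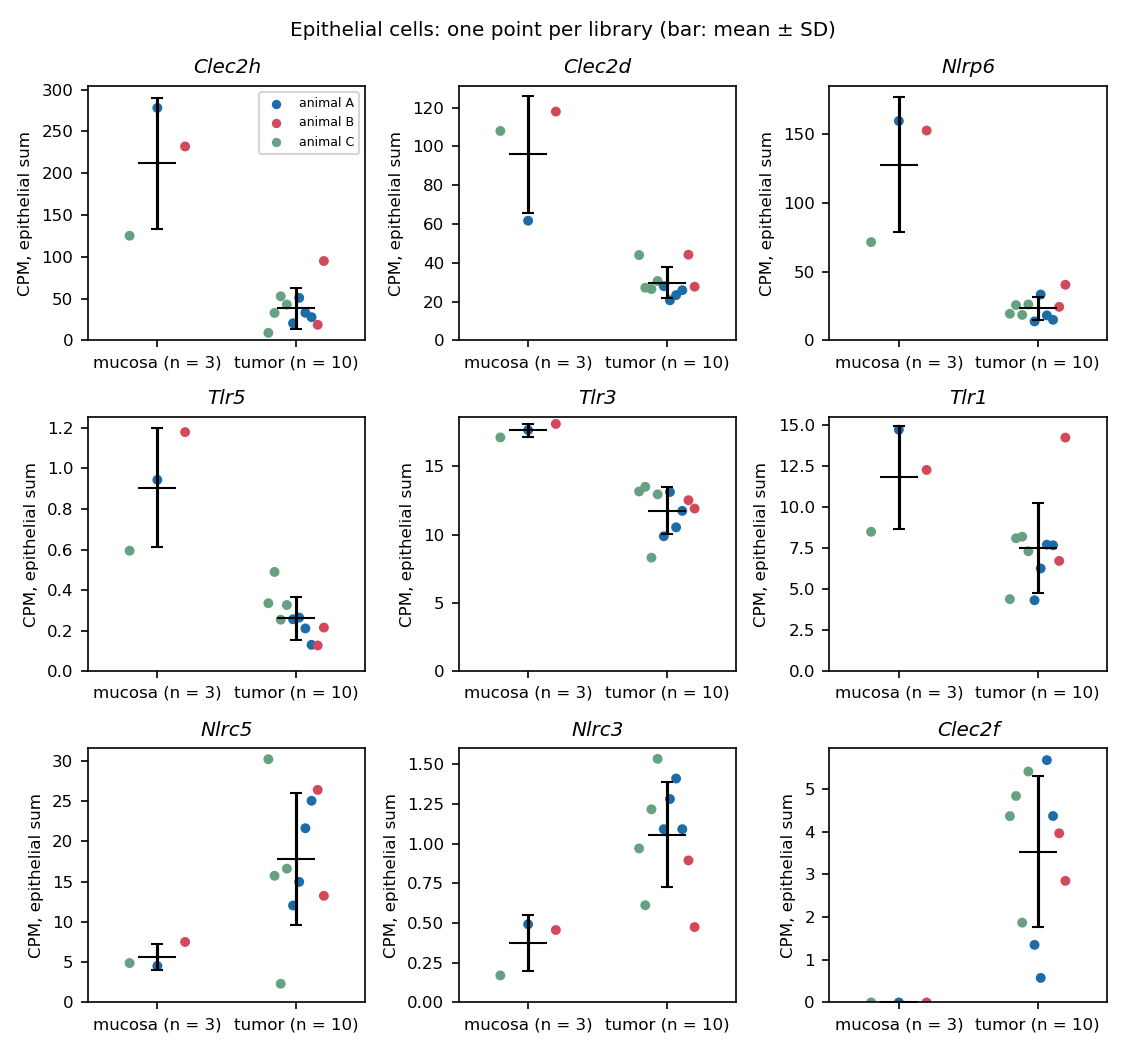
CPM of 9 members in the epithelial cells of each library, 3 mucosa and 10 tumor points per gene coloured by animal, with a bar at the mean and whiskers of 1 SD over libraries. The tumor points of Clec2h, Clec2d, Nlrp6, Tlr5 and Tlr3 all lie below the mucosa points, those of Tlr1 and Nlrc5 overlap them, and Clec2f is at 0 in all 3 mucosa libraries.

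Of the Toll-like receptors tested in the epithelium, Tlr5, Tlr3 and Tlr1 were lower in tumors, and Tlr13, described with the leukocyte genes further on, was higher. Tlr5, which reads flagellin at the epithelial surface, was at 0.59, 0.94 and 1.18 CPM in mucosa and at 0.13 to 0.49 in tumors (-2.03 ± 0.32, adjusted p = 0.000116), a low level with 275 UMIs in all. Tlr5 was thus lower in tumor epithelium and higher in the sums over all cells, from the same libraries. Tlr3 fell from 17.1, 17.7 and 18.1 CPM to between 8.32 and 13.5 (-0.86 ± 0.13, adjusted p = 6.66e-05), and Tlr1 from 8.51, 14.7 and 12.3 CPM to a median of 7.5001 (-0.93 ± 0.29, adjusted p = 0.0119). The Tlr1 groups overlapped through tumor 10 at 14.2 CPM, and without mucosa 2 its adjusted p was 0.0811. Tlr2 (-0.18 ± 0.21, adjusted p = 0.481), Tlr4 (-0.37 ± 0.20, adjusted p = 0.115) and Tlr6 (0.15 ± 0.36, adjusted p = 0.727) did not pass. Tlr2 passed as lower without mucosa 1 (-0.50, adjusted p = 0.00772), and Tlr4 without tumor 10 (-0.47, adjusted p = 0.0169).

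Clec2f, Nlrc5 and Nlrc3 were higher in tumor epithelium. The pseudogene Clec2f had no UMI in mucosal epithelium and 0.57 to 5.67 CPM in tumor epithelium, which is a rise of at least 253-fold from the 3-UMI floor of the mucosa group. Of its tumor UMIs, 90.5% were in tumor epithelial-like cells, which held 4.65 ± 0.91 CPM, against 0.09 ± 0.08 in other epithelial cells. Nlrc5 rose from 4.89, 4.52 and 7.51 CPM to a median of 16.2 and a range of 2.32 to 30.2 (1.37 ± 0.51, adjusted p = 0.0290). Tumor epithelial-like cells held 21.2 ± 2.78 CPM of it and other epithelial cells 7.02 ± 2.95. Nlrc3, an inhibitory family member, rose from at most 0.49 CPM to a median of 1.09 (1.20 ± 0.37, adjusted p = 0.0111). Both groups overlapped, and neither gene passed without mucosa 1, where adjusted p was 0.0945 for Nlrc5 and 0.0544 for Nlrc3. With tumors summed per animal and the animal as a block, Nlrc3 did not pass either (adjusted p = 0.0702). Nlrc5 also failed without mucosa 2 (adjusted p = 0.106). Both Nlrc5 and Nlrc3 ranked first in T cell-like cells among the ranked classes of tumors. The part of carried-over RNA in their epithelial values was not tested. Among the remaining cytosolic sensors, Nlrc4 (0.01 ± 0.14), Nlrp10 (-0.86 ± 0.38, adjusted p = 0.0614) and Nlrp9b (-1.001 ± 0.473, adjusted p = 0.0777) did not pass. Both Nlrp genes passed as lower without tumor 10 (adjusted p 0.00956 and 0.0232) and without tumor 2 (0.0402 and 0.0487), Nlrp10 with DESeq2 (-0.87, adjusted p = 0.049), and Nlrp9b without mucosa 1 (adjusted p = 0.0486) and with tumors summed per animal and the animal as a block (-0.85, adjusted p = 0.0490).

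The other members that rose in tumor epithelium were leukocyte genes at low levels. Clec4n (8.39 ± 0.87), Clec4d (8.09 ± 1.07), Tlr13 (7.595 ± 0.89), Clec4e (6.21 ± 1.01), Clec4a2 (5.69 ± 0.83), Nlrp3 (5.65 ± 0.88), Clec5a (4.95 ± 0.77), Clec12a (4.95 ± 0.96) and Clec4a3 (3.22 ± 0.87) passed on the log2 scale. Their tumor medians ran from 0.22 CPM (Clec4a3) to 2.56 CPM (Clec4e). Clec4n and Tlr13 had no UMI in mucosal epithelium, so that their rises from the 3-UMI floor were at least 83.3-fold and 47.4-fold. Clec3b (2.14 ± 0.46), the tetranectin gene, also rose, to at most 0.62 CPM.

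Marker lists of leukocytes, summed in the same cells, went both ways between tumor and mucosal epithelium. In tumor epithelial cells the neutrophil marker list (9 genes) summed to 212, 567 and 1098 CPM in the lowest, median and highest tumor, against 20.4, 61.1 and 118.8 in mucosa. The immune list (8 genes) stood at a median of 76.5 CPM against 16.0 and the Spp1+ macrophage list at 304 against 56.9. The C1q+ macrophage list stood at 76.8 against 84.1. The Ly6c+ monocyte list was lower in tumors (654 against 1601). So were the mast cell (27.6 against 38.1) and NK or innate lymphoid lists (4.20 against 6.60). In tumor epithelial cells Plac8 alone averaged 715 CPM of the monocyte list's mean of 729. The other genes of that list averaged 0.36 (Ly6i) to 6.11 CPM (Chil3) each. Their mucosal values are not given here, so the fall of that sum says little about them. Medians of the dendritic cell, T cell, B cell and plasma cell lists were higher in tumors. Taken as a percent of the level in neutrophil-like cells of the same tumor, epithelial Clec4d stood at a median of 0.240%, Clec4e at 0.269%, Nlrp3 at 0.255%, Clec1a at 0.203% and Nlrp12 at 0.132%. The neutrophil markers had medians of 0.120% (Retnlg) to 0.262% (S100a8), with Ly6g at 19.2%. Tlr13 (0.883%), Tlr6 (1.24%), Tlr2 (4.09%), Tlr4 (5.70%) and Clec2d (17.7%) were above the other markers. The part of free or carried-over RNA in each rise was not tested.

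**Figure D3:**
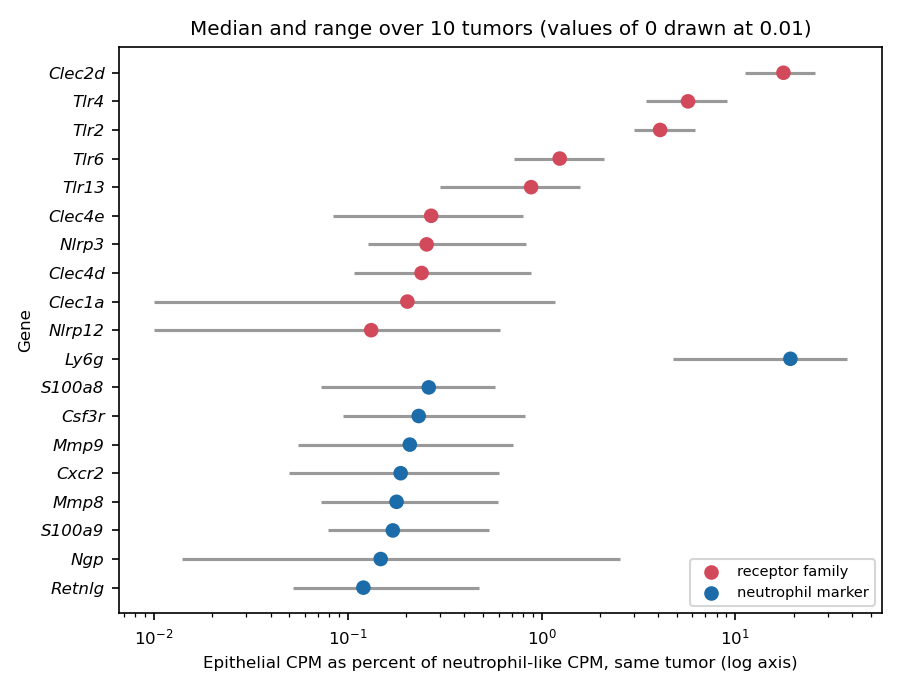
Level in epithelial cells as a percent of the level in neutrophil-like cells of the same tumor (log axis), as the median and range over 10 tumors, for receptor family members and for neutrophil markers; values of 0 are drawn at 0.01. Clec4d, Clec4e and Nlrp3 have medians of 0.240 to 0.269%, the markers apart from Ly6g medians of 0.120 to 0.262%, and Tlr13, Tlr6, Tlr2, Tlr4 and Clec2d lie higher.

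C1q+ macrophage-like cells could be compared in 10 tumors and 2 mucosa libraries, which held only 53 cells between them. Of 34 members tested, 4 were higher in tumors, where 2.01% of 11434 genes were, and 2 were lower, where 0.603% were. Clec4n was at 55.3 and 161 CPM in mucosa 1 and 3, and at 605 to 759 in tumors (2.90 ± 0.32, adjusted p = 0.000132). Tlr2 was at 22.1 and 32.2 CPM against 95.6 to 226 (2.80 ± 0.50, adjusted p = 0.00582), and Nlrp3 at 22.1 and 64.4 CPM against 91.8 to 176 (1.91 ± 0.41, adjusted p = 0.0188). Clec4d had no UMI in the mucosal cells and 118 to 302 CPM in tumors, a rise of at least 14.8-fold from the 3-UMI floor. All tumors exceeded both mucosa libraries for these 4 genes. Over all 34 members, 15 lay wholly higher, where 26.6% of genes did, and 7 wholly lower, where 12.6% did.

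Clec4a3 went the other way, from 443 and 201 CPM to between 92.8 and 123 (-1.26 ± 0.22, adjusted p = 0.00504), as did Clec2i, a natural killer receptor ligand, from 33.2 and 32.2 CPM to at most 4.69 (-4.04 ± 0.90, adjusted p = 0.0219, 7 UMIs in mucosa). Of the remaining lectins, Clec4a2 (-0.26 ± 0.20), Clec4a1 (0.05 ± 0.42) and Clec5a (1.49 ± 0.41, adjusted p = 0.0730) did not pass. Of the other Toll-like receptors, Tlr8 (2.04 ± 0.90), Tlr4 (1.25 ± 0.57), Tlr3 (1.21 ± 1.32), Tlr6 (1.04 ± 0.86), Tlr13 (0.12 ± 0.38), Tlr1 (-0.47 ± 0.36), Tlr7 (-0.60 ± 0.59) and Tlr12 (-1.11 ± 0.59) did not pass, with adjusted p of 0.389 or more. Tlr5 and Tlr9 had no UMI in the mucosal cells and did not pass either. Leaving out either mucosa library sets the 10 tumors against 1 mucosa library, which is then assumed to vary like the tumors. Without mucosa 1, 2 members passed, and Clec4a3 (-0.70), Nlrp3 (1.38) and Tlr2 (2.55) did not (adjusted p 0.393, 0.266 and 0.118). Without mucosa 3 Tlr2 was at 3.24 (adjusted p = 0.0763). Scaling by library size alone moved the median of all genes from 0.38 to 0.05 and the calls from 230 higher and 69 lower to 95 and 140, with 3 members higher and 2 lower. Neutrophil-like, Ly6c+ monocyte-like and dendritic cell-like cells reached 20 cells in 1 mucosa library each and Spp1+ macrophage-like cells in none, so they were not tested.

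T cell-like cells showed changes in both directions. Of 10 members tested, 4 were higher in tumors, where 20.6% of 10508 genes were, and 4 were lower, where 20.7% were. The lower members were Clec2i (-2.05 ± 0.17, adjusted p = 4.06e-08), Tlr12 (-1.49 ± 0.37, adjusted p = 0.00322), Clec2d (-0.72 ± 0.19, adjusted p = 0.00462) and Nlrc3 (-0.46 ± 0.14, adjusted p = 0.0138). Clec2i stood at 46.5, 59.6 and 68.2 CPM in mucosa and 7.42 to 17.5 in tumors, far apart. Clec2d was at 269, 122.2 and 207 CPM in mucosa and 91.1 to 136 in tumors, with overlap, and did not pass without mucosa 1 (adjusted p = 0.142). Nlrc3, which restrains T cell activation, was at 35.1, 45.6 and 50.4 CPM against 21.3 to 36.3, and did not pass without mucosa 3 (adjusted p = 0.102). Nlrc5, highest in T cell-like cells among the ranked classes of tumors (52.0 ± 5.51 CPM), did not pass here (0.35 ± 0.18, adjusted p = 0.122). Of the 10 members, 3 lay wholly higher in tumors, where 10.1% of genes did, and 2 wholly lower, where 19.7% did.

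Tlr1 (1.11 ± 0.34, adjusted p = 0.0138) and the myeloid genes Clec4d, Clec4e and Nlrp3 were the higher ones. Tlr1 did not pass without mucosa 1 (1.04, adjusted p = 0.0679). Clec4d and Nlrp3 had no UMI in mucosal T cell-like cells with rises of at least 17.2-fold and 18.5-fold from the 3-UMI floor, while Clec4e rose by 3.87 ± 1.03. Their tumor levels were 0.392%, 0.554% and 0.343% of those in neutrophil-like cells (medians for Clec4d, Nlrp3 and Clec4e), with neutrophil markers between 0.094% and 0.902%.

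The T cell-like class was made of different cells in the 2 tissues. A cluster led by Tnfrsf4, Cd6 and Cd4 held 6002 tumor and 611 mucosa cells, and one led by Ccl5, Cd160 and Gzma held 457 and 4002. In the first cluster alone, a comparison chosen after seeing the data, 2 of 9 members were lower, where 6.17% of 9692 genes were, and none was higher, where 8.98% were. At an unadjusted p under 0.05 edgeR had 3 higher (Clec4d, Nlrp3 and Nlrc5) and also Tlr1 lower. The share of all genes at that threshold is not given here, and no other tool was run on this cluster. The lower members were Clec2i (-1.74 ± 0.22, adjusted p = 1.62e-05) and Clec2d (-0.83 ± 0.21, adjusted p = 0.0117), both lower in tumors as before. Tlr1 changed sign there (-0.95 ± 0.41, adjusted p = 0.125), with 4.50 ± 0.29 CPM in tumors and 9.48 ± 1.26 in mucosa. In the second cluster it was at 2.32 ± 2.19 and 0.82 ± 0.71. Nlrc3 in the first cluster was at 25.7 ± 2.63 CPM in tumors and 39.2 ± 14.6 in mucosa (adjusted p = 0.445), and Clec4d (6.21 ± 2.19), Clec4e (6.29 ± 3.00) and Nlrp3 (6.13 ± 2.65) did not pass, with adjusted p between 0.0631 and 0.170.

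Few members could be tested in the remaining lymphoid classes. In NK or innate lymphoid-like cells, Clec2d and Clec2i were the 2 members tested and both were lower, where 14.3% of 3383 genes were. Clec2d fell from 311, 162 and 271 CPM to between 46.2 and 152 (-1.64 ± 0.23, adjusted p = 7.14e-06), without overlap, and Clec2i from 67.1, 81.0 and 118 CPM to between 15.8 and 69.1 (-1.32 ± 0.29, adjusted p = 0.00135). Here 332 of 3383 genes lay wholly lower in tumors. In B cell-like cells, 1 of 4 members tested was lower, where 20% of 5711 genes were. It was Clec2i, from 58.8, 71.7 and 86.9 CPM to a median of 34.3 and a highest tumor of 82.3 (-1.04 ± 0.24, adjusted p = 0.00183). With the animal as a block, 2 of these 4 passed. Clec2d (-0.70 ± 0.28, adjusted p = 0.0510), Tlr1 (-0.82 ± 0.36, adjusted p = 0.0696) and Nlrc5 (-0.04 ± 0.35) did not pass in B cell-like cells.

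In plasma cell-like cells, 1 of 5 members was lower, where 11.6% of 9245 genes were, and 2 passed with the animal as a block. Clec2g, another member of the Clec2 branch, went from 8.63, 20.4 and 28.9 CPM to between 3.99 and 6.97 (-1.34 ± 0.29, adjusted p = 0.00417), without overlap, but did not pass without mucosa 3 (adjusted p = 0.148). Here 2426 of 9245 genes lay wholly lower in tumors. Clec2d did not pass in this class (-0.42 ± 0.30, adjusted p = 0.340). Plasma cell-like cells were also where Clec2g ranked first in all 10 tumors, with 62.9% of its tumor UMIs. No member was higher in NK or innate lymphoid-like, B cell-like or plasma cell-like cells by edgeR, where 15.8%, 19.3% and 10.2% of genes were. At an unadjusted p under 0.05 in edgeR the count was 1, Clec4e in plasma cell-like cells (p = 0.0148, adjusted p = 0.0621). DESeq2 called 1 member higher there and 0 in the other classes. Shares of all genes beside these counts are not given here. Scaling by library size alone moved the median of all genes in plasma cell-like cells from 0.03 to -0.54 and the calls from 945 higher and 1077 lower to 235 and 3653, with 2 members lower.

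**Figure D4:**
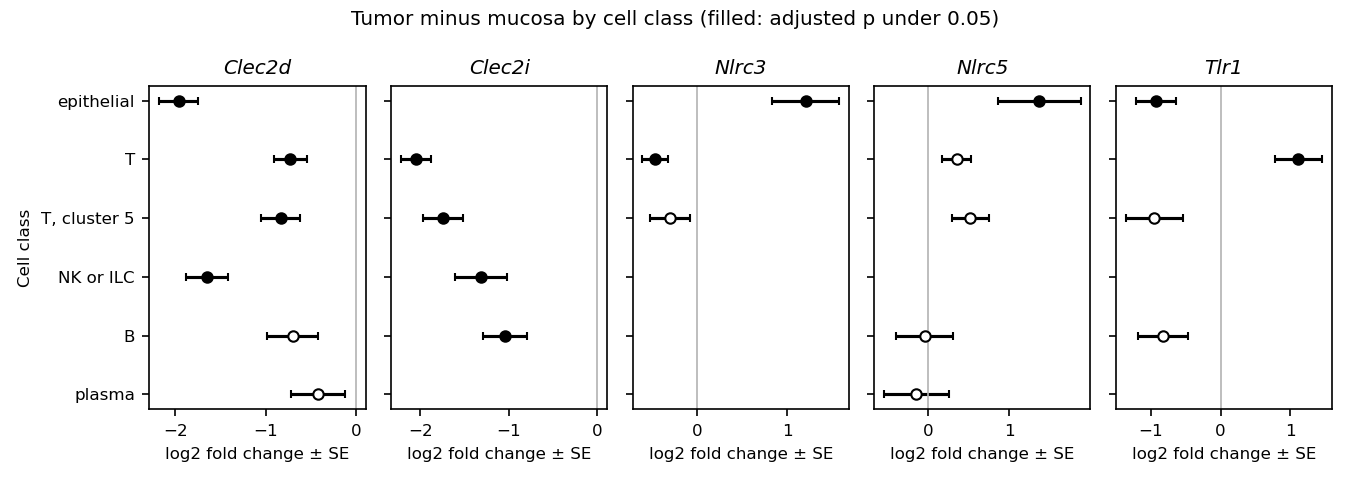
Log2 fold change, tumor minus mucosa, with SE, of Clec2d, Clec2i, Nlrc3, Nlrc5 and Tlr1 in epithelial cells and lymphoid classes, where tested; filled points have an adjusted p under 0.05. Clec2d and Clec2i lie below 0 in every class shown, from -1.96 to -0.42 and from -2.05 to -1.04, while Tlr1 is at -0.93 in epithelial cells, 1.11 in T cell-like cells and -0.95 in the T cell-like cluster led by Tnfrsf4.

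The size of the change differed between classes for some members, by an interaction test in edgeR, and those that also passed in both classes are given first. Clec2d fell further in epithelial than in T cell-like cells (difference -1.17 ± 0.19, adjusted p = 0.000143), and Nlrc3 (1.84 ± 0.28, adjusted p = 9.04e-05) and Tlr1 (-1.84 ± 0.38, adjusted p = 0.00105) changed in opposite directions in these cells. That test called 11 of 35 members and 35.6% of all genes. The other 8 were Clec12a, Clec2f, Clec2h, Clec2i, Clec3b, Clec4a1, Tlr2 and Tlr6, and the values of both the epithelial and the T cell-like cells include their differences in makeup between the tissues. In the T cell-like cluster led by Tnfrsf4 alone, Tlr1 had the same sign as in epithelial cells (-0.95) and Nlrc3 did not pass (-0.29, adjusted p = 0.445). Clec2i fell further in T cell-like than in B cell-like cells (-1.05, adjusted p = 0.00242), in a test that called 16.1% of genes and also Tlr1 (2.09, adjusted p = 0.00176), which had not passed in B cell-like cells. Clec2d fell less in T cell-like than in NK or innate lymphoid-like cells (0.74, adjusted p = 0.0244), where 4.8% of genes were called. Epithelial cells were also compared with the other lymphoid classes. Clec2d fell further in them than in B cell-like (-1.25, adjusted p = 0.000481) and plasma cell-like cells (-1.53, adjusted p = 0.000141). The difference from NK or innate lymphoid-like cells did not pass (-0.45, adjusted p = 0.349). Other members called there are not listed.

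Genes that work with these receptors were taken from 4 lists. Of 16 signaling partners of C-type lectins, such as Syk, Card9 and Fcer1g, 14 were higher in tumors over all cells and none lower, with Tyrobp furthest (4.80 on the log2 scale). For these and the counts that follow, the shares of all genes called higher and lower were 36.1% and 33.8% over all cells and 34% and 30.4% in epithelial cells. In epithelial cells, 4 were higher and 3 lower of 15 tested, with Tyrobp furthest up (4.84). The part of carried-over leukocyte RNA in that rise was not tested. Of 20 Toll-like receptor adaptors and co-receptors, 16 were higher and 1 lower over all cells, the latter being Ticam1 (-0.54), the adaptor of Tlr3. Ticam2, which links Tlr4 to the same pathway, rose furthest (3.87). In epithelial cells, 6 were higher and 5 lower of 19, from Sarm1 (4.43) to Irak3 (-2.001).

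The inflammasome partners included more lower than higher genes. Of 15 genes, 3 were higher and 7 lower over all cells, and 1 was higher and 9 were lower in epithelial cells. Il1b, the inflammasome's cytokine, was the furthest riser in both (8.59 and 7.66), and the furthest falls were those of Naip1 (-2.11), a receptor that feeds Nlrc4, over all cells and of Pycard (-2.15), the shared adaptor, in epithelial cells. The median of the list in epithelial cells was -0.60, against 0.04 over all genes. The last list held other nucleic acid and peptidoglycan sensors and related genes that are not such sensors themselves, Mefv, Mavs and Ciita among them. Of its 14 genes tested, 7 were higher and 2 lower over all cells, from Mefv (7.31) to Mavs (-0.71). In epithelial cells 4 were higher and 5 lower, from Mefv (6.90) to Ciita (-1.50). In T cell-like cells the inflammasome partners gave 3 higher and 4 lower of 12, where 20.6% and 20.7% of genes were, and in B cell-like cells 1 higher and 2 lower of 8, where 19.3% and 20% were, with Il1b furthest up in each. The part of neutrophil RNA in the Il1b values of epithelial and lymphoid cells was not tested. Nor was that of carried-over leukocyte RNA in the epithelial rise of Mefv.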

How the data were processed

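Single cells of 10 colon tumors and 3 adjacent mucosa samples were profiled with a 10x 3′ kit. The authors deposited UMI counts per gene and barcode, made with Cell Ranger 6.0.0 on mm10 per the labels' processing notes; these deposited counts were not normalized. From them, barcodes were kept at 500 or more UMIs, 200 or more genes and 25% or less mitochondrial UMIs (118892 of 137591), and 10397 likely doublets, scored against simulated doublets in each library, were left out. The 108495 cells were clustered (2000 variable genes with the 63 members held out, 30 principal components, 20 neighbours, Leiden, igraph 0.11.9) into 35 clusters and named from marker lists, so class shares and names are rebuilt and not the authors'.

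UMIs were summed per library and class (at least 20 cells) and tested with edgeR 4.0.16 in R 4.3.3 (TMM, filterByExpr, quasi-likelihood test, Benjamini-Hochberg adjustment over all genes tested, threshold 0.05), tumor minus mucosa, over libraries. Expression levels in a class are means over the tumors of an animal and then over 3 animals. Tumors of 1 animal are not independent animals, so p-values measure the spread between libraries. The animal code pairs tumors with the mucosa of the same animal. Correlations of their deviations were 0.067 to 0.28 within an animal and -0.341 to 0.232 between animals. Tumors of the animals of 20 and 24 weeks correlated most with their own mucosa. Tumors of the animal of 23 weeks did not. They correlated more with mucosa of the animal of 24 weeks (0.0805 over all cells, 0.232 in epithelial cells) than with their own (0.0674 and 0.135). For that animal the correlations therefore do not single out its pairing. Fits with the animal as a block, DESeq2 1.42.0, no low-count filter, other cell filters, doublets kept and each library left out were alternatives. The edgeR fit was tested on simulated counts with independent libraries and fewer changed genes than were called here. That test therefore does not cover tumors that share an animal or so many changes. Members with at least 50 CPM in a class, the called members with at least 100 UMIs and the largest changes (up to 10 each way), every Tlr gene tested, and every Nlrp and Nlrc gene tested in epithelial cells were named. The members, defined by symbol, and the lists were chosen with earlier results of these data known. Intervals and floors (3 counts) cover counting error only.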

Additional observations from a re-analysis of the deposited data

Results flagged for a closer look

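In a test for a single extreme tumor, 10 of 108 values stood out, where chance gives about 1 in 20. Over all cells, Clec14a was highest in tumor 9 (0.997 CPM, median 0.397) and Tlr1 in tumor 10 (12.2 CPM, median 8.54). In epithelial cells, tumor 10 stood out for Clec2h (95 CPM, median 33.0) and Tlr1 (14.2 CPM, median 7.5001), and tumor 9 for Clec4e (10.6 CPM, median 2.56), Nlrp3 (8.05 CPM, median 2.51) and Clec5a (1.41 CPM, median 0.65). Tumor 9 also held the most S100a8 and S100a9 in epithelial cells (923 CPM), and the part of that RNA was not tested. Clec2i in B cell-like cells was highest in tumor 9 (82.3 CPM, median 34.3), and Clec4d in neutrophil-like cells in tumor 5 (1639 CPM, median 1106). Clec2d in the unnamed cluster led by Cox6a2 and Siglech was lowest in tumor 4 (168 CPM, median 222).

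The change from mucosa to tumor differed between cell classes for 4 of the members that passed in both classes compared. Between epithelial and T cell-like cells it differed for Clec2d (-1.96 against -0.72, difference -1.17), Nlrc3 (1.20 against -0.46, difference 1.84) and Tlr1 (-0.93 against 1.11, difference -1.84). In the T cell-like cluster led by Tnfrsf4 alone, Tlr1 was at -0.95 and Nlrc3 at -0.29, neither passing. Clec2i differed between T cell-like and B cell-like cells (-2.05 against -1.04, difference -1.05) and Clec2d between T cell-like and NK or innate lymphoid-like cells (-0.72 against -1.64, difference 0.74). Adjusted p in edgeR's interaction test lay between 9.04e-05 and 0.0244.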

How the results depend on the processing

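Counts of members called over all cells (40) and in epithelial cells (21) stayed within 1.5 times under every alternative run. The 18 calls over 5 immune classes became 41 with no low-count filter and 28 with doublets kept. Dropping the filter also let more members be tested. Shares of all genes called are not given here for most alternatives of this paragraph. Its counts therefore show how calls depend on settings and are not a result about the members. In T cell-like cells 8 became 18 and 13 under the same settings and 2 in the cluster led by Tnfrsf4 alone. With no filter, 2 became 4 among NK or innate lymphoid-like cells. In B cell-like cells 1 became 9 with no filter and 2 with library size scaling, with the animal as a block, with tumors summed per animal and the block, with under 10% mitochondrial UMIs, and with at least 1000 UMIs and 500 genes; leaving out single libraries gave 1 to 2. In plasma cell-like cells 1 became 3 with no filter, 2 with DESeq2, 2 with library size scaling, 2 with the block and 6 with doublets kept; leaving out single libraries gave 0 (without mucosa 3) to 2. In C1q+ macrophage-like cells leaving out single libraries gave 2 (without mucosa 1) to 7. The block changed no other count by over 1.5 times. Of the counts without 1 library, 103 stayed within that limit and 9 did not.

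Among single values, outside the fits without 1 library, 770 kept direction and call, 12 reversed, 8 lost and 4 gained a call and 1 moved, and the cause was not tested. In epithelial cells Clec4a1 (-0.43) went to 0.65 with doublets kept and 2.86 without goblet-, enteroendocrine- and Paneth-like clusters (adjusted p = 0.00692, now passing), and leaving out single libraries gave -0.90 to 1.03 (without mucosa 1). Nlrc4 (0.01) went to -0.024 with no filter, -0.032 with under 10% mitochondrial UMIs and -0.056 without those clusters, and leaving out single libraries gave -0.088 (without mucosa 1) to 0.090. Tlr2 (-0.18) went to 0.27 with doublets kept, 0.11 with library size scaling and 0.020 with under 10% mitochondrial UMIs, and leaving out single libraries gave -0.50 to 0.053 (without mucosa 3). Tlr6 passed with doublets kept (0.84, adjusted p = 0.0380). Tlr1 in T cell-like cells went from 1.11 to -0.95 in the Tnfrsf4 cluster alone. In C1q+ macrophage-like cells Tlr9 went to -0.11 with DESeq2, and Tlr13 to -0.028 with DESeq2 and -0.20 with library size scaling. Leaving out single libraries there, which with a mucosa library out leaves 1 in that arm (assumed to vary like the tumors), gave -0.96 to 0.55 for Tlr1, -1.98 to 10.4 for Tlr12 and -0.34 to 0.70 for Tlr13, each reversed without mucosa 3, and -1.25 to 0.38 for Tlr7, reversed without mucosa 1. Library size scaling, chosen after seeing the data, moved the calls over all genes in epithelial cells from 5264 higher and 4711 lower to 7102 and 3073 (members 14 and 8), in T cell-like cells from 2162 and 2180 to 1525 and 3239, and from 534 and 485 to 473 and 631 for the NK or innate lymphoid-like class. C1q+ macrophage-like cells could not be run under the stricter cell filters or with tumors summed. Few mucosal myeloid cells limit every myeloid comparison.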

Other observations

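Outside the classes compared above, the unnamed cluster led by Cox6a2, Siglech and Ccr9 (198 cells in the 4 tumors with at least 20 of them) held lectins and Tlr7. Clec10a stood at 248 ± 47.8 CPM there (SD, n = 3 animals), Clec2d at 214 ± 13.8, Clec12a at 99.2 ± 49.8 and Clec2i at 58.8 ± 8.74. Tlr7, the receptor for single-stranded RNA, stood at 71.1 ± 8.50 CPM.

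Some myeloid classes reached 20 cells in 1 mucosa library only, so their mucosal levels are given without a test, with exact Poisson 95% intervals that cover counting error only. The 47 neutrophil-like cells of mucosa 2 held 36 UMIs of Clec4e, or 677.9 CPM (474.8 to 938.5), and 34 of Clec4d, or 640.2 CPM (443.4 to 894.7). Nlrp3 had 9 UMIs there (169.5 CPM, 77.49 to 321.7) and Clec5a 8 (150.6 CPM, 65.04 to 296.8). In the 40 Ly6c+ monocyte-like cells of mucosa 3, Clec4e had 19 UMIs (115.5 CPM, 69.51 to 180.3), Nlrp3 had 7 (42.53 CPM, 17.1 to 87.64) and Clec4d 5 (30.38 CPM, 9.865 to 70.9). The 25 dendritic cell-like cells of mucosa 1 held 11 UMIs of Clec9a (46.75 CPM, 23.34 to 83.66) and 15 of Clec10a (63.76 CPM, 35.68 to 105.2).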
